A study of Mus musculus with 5 samples.

Results

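Mast cell and neutrophil transcripts were followed in mouse atria of the genotype MRC2 E990G-het, with a changed amino acid on one allele of MRC2 (het), and in wild-type atria (WT). The 7 genes described here, out of 57186 in the deposited tables, are Cpa3, Cma1, Mcpt4 and Tpsb2, which encode mast cell granule proteases, Kit, the receptor of stem cell factor, and S100a8 and S100a9, which encode the subunits of the neutrophil protein calprotectin. They were picked because their levels in these libraries were higher in het, so their het values beside WT are a description and carry no test. The series describes 7 het and 8 WT mice of 4 to 10 months. The 5 libraries analysed here, all of batch 2, are het replicates 5, 6 and 7 and WT replicates 7 and 8. Every animal gave whole atria frozen directly after removal, and the RNA of a column extraction was pooled with that recovered from the remaining tissue. The MRC2 protein takes up collagen into fibroblasts and related cells. How the allele was made, and the age and sex of each animal, are not given in the sources used here.

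Mast cells are resident immune cells of connective tissue, including that of the heart. They depend on signalling by KIT and store proteases in secretory granules bound to the proteoglycan serglycin, from which the proteases are released on activation. Neutrophils are short-lived blood granulocytes that carry large amounts of calprotectin in the cytosol. Calprotectin binds calcium and metal ions and, once released, signals through Toll-like receptor 4 and the receptor for advanced glycation end products. Both cell types make up a small part of the cells of a heart, so their transcripts are rare in RNA of whole atria, and a difference in the number of such cells cannot be told apart from a difference in RNA per cell.

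The promoters of the members are shown because these genes are described together and GATA factors act in mast cell development. RefSeq's promoter table, on GRCm38.p6, held 6 of the 7 members. The 150 bases before the annotated start are printed, read on the strand of the gene. Capitals mark matches to a GATA motif (AGATAA or AGATAG, likewise TGATAA or TGATAG, on both strands) or to a TATA box (TATAAA, on both strands). The windows are chr3:20242182-20242331 (minus strand) for Cpa3, chr14:55944676-55944825 (minus strand) for Cma1, chr14:56062311-56062460 (minus strand) for Mcpt4, chr3:90668921-90669070 (plus strand) for S100a8 and chr3:90695722-90695871 (minus strand) for S100a9.
Cpa3: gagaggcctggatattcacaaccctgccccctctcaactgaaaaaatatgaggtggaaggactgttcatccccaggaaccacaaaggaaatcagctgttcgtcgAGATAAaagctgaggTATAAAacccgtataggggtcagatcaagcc
Cma1: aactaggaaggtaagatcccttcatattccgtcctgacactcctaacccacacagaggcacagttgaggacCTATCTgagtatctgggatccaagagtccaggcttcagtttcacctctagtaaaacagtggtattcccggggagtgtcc
Mcpt4: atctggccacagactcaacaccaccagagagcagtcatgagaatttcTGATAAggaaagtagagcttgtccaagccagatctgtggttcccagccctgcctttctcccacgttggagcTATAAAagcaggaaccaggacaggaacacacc
S100a8: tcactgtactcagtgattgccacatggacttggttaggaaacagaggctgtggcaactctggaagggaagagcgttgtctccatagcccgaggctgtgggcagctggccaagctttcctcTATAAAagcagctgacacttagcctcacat
S100a9: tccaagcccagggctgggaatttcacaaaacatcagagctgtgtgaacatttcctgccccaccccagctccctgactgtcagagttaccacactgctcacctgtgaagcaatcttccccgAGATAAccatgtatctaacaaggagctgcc

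A GATA match lay 46 bases before the start of Cpa3, 79 before that of Cma1, 103 before that of Mcpt4 and 30 before that of S100a9. Of all 27025 promoters in the table, 16.3% hold one in the same 150 bases. A TATA match lay 31 bases before the start of Cpa3, 32 before that of Mcpt4 and 30 before that of S100a8, against 8.08% of all promoters with one in the same window. The window of Kit, a gene of chromosome 5, held neither. Of other motifs searched on both strands over the table's 300 bases, an E-box (CANNTG) was found in 5 of the 6 members and in 72.1% of all promoters, an Ets motif (AGGAAG) in 4 of 6 and in 35.1%, and a C/EBP motif (TTGCNNAA) in 1 of 6 and in 10.8%. No searched motif was shared by all 6 members. A match is a string of letters and not a known binding site.

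Kit has a pair of full-length transcripts in the files, and they differ by the 12 bases (4 codons) that separate the known receptor forms with and without a tetrapeptide next to the membrane. The sequence around the insert is shown because this is the difference in protein between the transcripts to which Kit counts were assigned. It comes from the GENCODE annotation on GRCm38, with 24 bases on either side and the 12 extra bases in capitals; a repeat of AAA at the junction allows other placements of the same length.
Kit with the insert, ENSMUST00000005815: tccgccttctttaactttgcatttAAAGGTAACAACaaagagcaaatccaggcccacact
Kit without the insert, ENSMUST00000144270: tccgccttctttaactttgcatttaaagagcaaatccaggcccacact

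The libraries held 17784601 (WT 8) to 28353091 (het 7) expected counts, the fractional read counts that RSEM assigns to a gene, and mitochondrial genes took 12.98% to 17.67% of them. WT 7 stood apart from the other libraries before any member was considered: Ddx3y, on the Y chromosome, had 938 counts there and at most 3 in each of the other 4, and Xist had 22 counts there and at least 6117 in the others. Sex therefore cannot be told apart from the single library WT 7. The groups also differed in the number of genes with a count. It was 23017, 21709 and 22791 in het 5, 6 and 7, and 27438 and 24648 in WT 7 and 8, although WT 8 was the shallowest library. The cause was not tested. The summed level of 7 atrial cardiomyocyte markers was 60037 to 68306 CPM (the count relative to the library total, scaled between libraries by TMM) in het and 87146 to 91021 CPM in WT atria, and that of 3 ventricular markers 24.04 to 104 CPM in het and 72.3 to 73.0 CPM in WT, so the tissue carried the markers of its label. Across 16412 genes with enough counts for edgeR's quasi-likelihood test, 490 (2.99%) were called higher and 436 (2.66%) lower in het at an adjusted p under 0.05, 926 in all (5.64%). Scaled by library size alone, 795 were called higher and 391 lower.

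All members were low. In het atria the proteases, Kit and calprotectin genes together had 299, 264 and 509 expected counts (het 5, 6 and 7), and in WT atria 226 and 149 (WT 7 and 8). S100a8 did not pass the expression filter of the test, and S100a9 and Cpa3 passed it with single-digit counts in WT. Of the 6 members that passed, 0 were called in edgeR's test (2.99% of all genes were called higher). At an unadjusted p under 0.05 there were 3 such members (24.7% of all genes tested, in either direction). DESeq2 called Cma1 higher (5.28% of all genes) and limma-voom called 0 (1.44% of all genes called higher). In 4 of the 6, every het library lay above both WT libraries (21.1% of all genes tested; in either direction, the groups did not overlap in 42.3%), and since the members were picked on this contrast nothing is read from these counts.

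**Figure D1:**
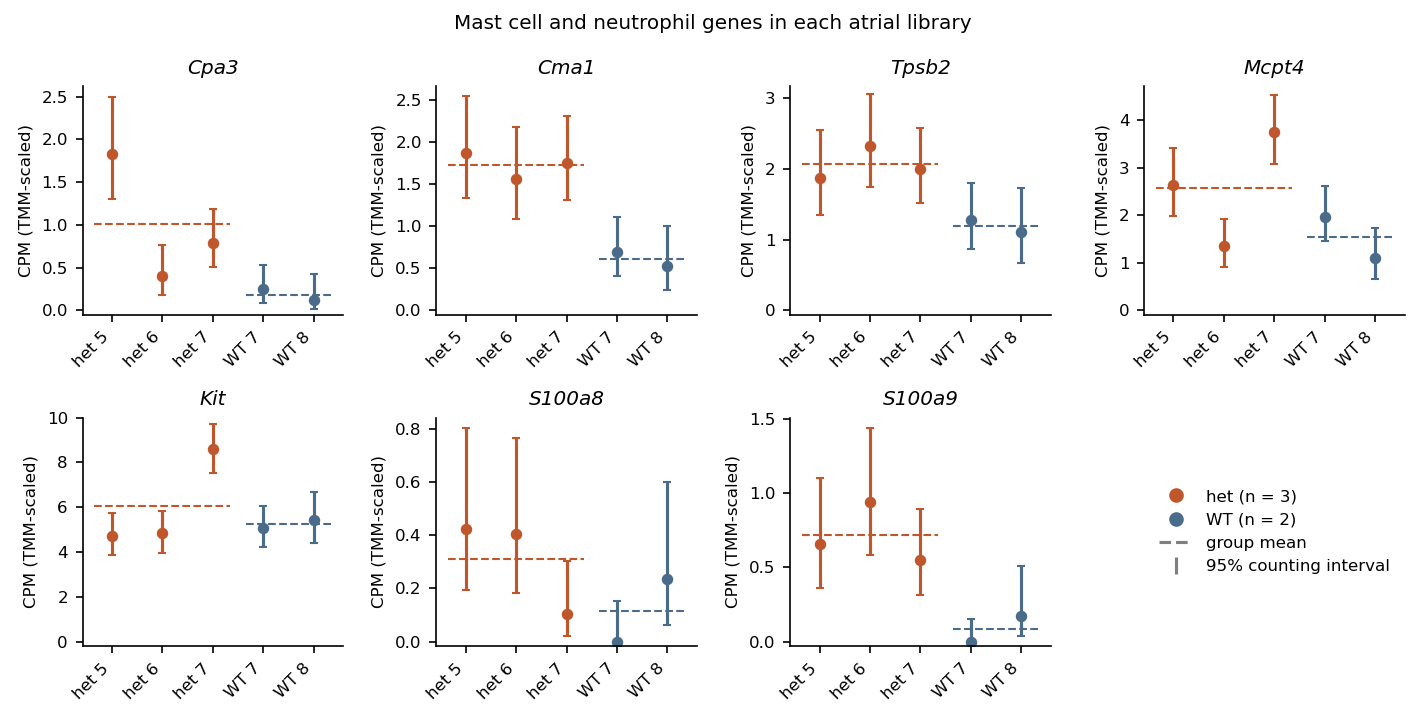
Expression of each of the 7 genes in every atrial library, in TMM-scaled CPM on a linear axis, with the 3 het libraries left of the 2 WT libraries; bars are 95% Clopper-Pearson intervals for counting error and dashed lines are group means. The het and WT points separate for Cpa3, Cma1, Tpsb2 and S100a9 and overlap for Mcpt4, Kit and S100a8.

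Cma1, the mouse mast cell chymase of the alpha type, had the most even separation. It had 40, 35 and 51 counts in het 5, 6 and 7, and 17 and 9 counts in WT 7 and 8. In CPM these were 1.88, 1.57 and 1.76 in het and 0.697 and 0.526 in WT, with a mean of 1.73 ± 0.156 in the 3 het libraries and 0.611 ± 0.121 in the 2 WT libraries (SD). The het libraries lay close together and none reached down to a WT library. The counting interval of the lowest het library (1.09 to 2.18 CPM, het 6) nevertheless overlapped that of the higher WT library (0.406 to 1.12 CPM, WT 7). The log2 fold change of het over WT was 1.48 (SE 0.48).

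Cpa3 encodes mast cell carboxypeptidase A, which trims peptides from the carboxyl end and is a defining transcript of mast cells. It had 39, 9 and 23 counts in het 5, 6 and 7, and 6 and 2 counts in WT 7 and 8. The level was 1.83 CPM in het 5, 0.403 in het 6 and 0.792 in het 7, against 0.246 CPM in WT 7 and 0.117 in WT 8. Het 5 alone was thus far above the rest, and het 6 was nearer to WT 7 than to het 5. The counting intervals of het 6 (0.184 to 0.765 CPM) and WT 7 (0.0903 to 0.535 CPM) overlapped. The means were 1.01 ± 0.737 CPM over het and 0.181 ± 0.0913 CPM over WT libraries (SD, n = 3 and 2), and the log2 fold change was 2.38 (SE 0.83). It was 3.04 without WT 7 and 0.69 on log2(TPM + 1), and without het 5 or het 7 the gene did not pass the filter.

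Tpsb2 encodes a tryptase, a trypsin-like protease that forms tetramers on heparin in the granule. Its counts were 40, 52 and 58 in het 5, 6 and 7, and 31 and 19 in WT 7 and 8. Its CPM were 1.88, 2.33 and 2.00 in het and 1.27 and 1.11 in WT. Every het library was above both WT libraries, by a smaller margin than for Cma1: the log2 fold change was 0.79 (SE 0.40). The related tryptase gene Tpsab1 had at most 8 counts in any library (WT 7), and reads that fit both genes are divided by RSEM's model, so the Tpsb2 level depends on that division.

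Mcpt4 encodes a chymotrypsin-like protease of connective tissue mast cells that can convert angiotensin I, as human chymase does. It had 56, 30 and 109 counts in het 5, 6 and 7, and 48 and 19 in WT 7 and 8. The levels were 2.63, 1.34 and 3.75 CPM in het and 1.97 and 1.11 CPM in WT. The groups overlapped, since WT 7 was above het 6, and het 7 was the highest library. The log2 fold change was 0.73 (SE 0.47), 0.35 without het 7 and 1.22 without WT 7.

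Summed over the 4 protease genes, the libraries held 175, 126 and 241 counts in het 5, 6 and 7, and 102 and 49 counts in WT 7 and 8. The summed levels were 8.21, 5.64 and 8.30 CPM in het and 4.18 and 2.86 CPM in WT, with no overlap. The make-up of the sum differed from library to library. Cpa3 gave 22.3%, 7.14% and 9.54% of the protease counts in het and 5.88% and 4.08% in WT. Cma1 gave 22.9%, 27.8% and 21.2% in het and 16.7% and 18.4% in WT, so that each of these genes took a larger share in every het library than in either WT library. Mcpt4 held 32.0%, 23.8% and 45.2% in het and 47.1% and 38.8% in WT, and Tpsb2 22.9%, 41.3% and 24.1% in het and 30.4% and 38.8% in WT. The shares of Mcpt4 and Tpsb2 overlapped between the groups. All 4 genes were picked for higher levels in het, so nothing is read from the separation of the sum or of the shares.

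**Figure D2:**
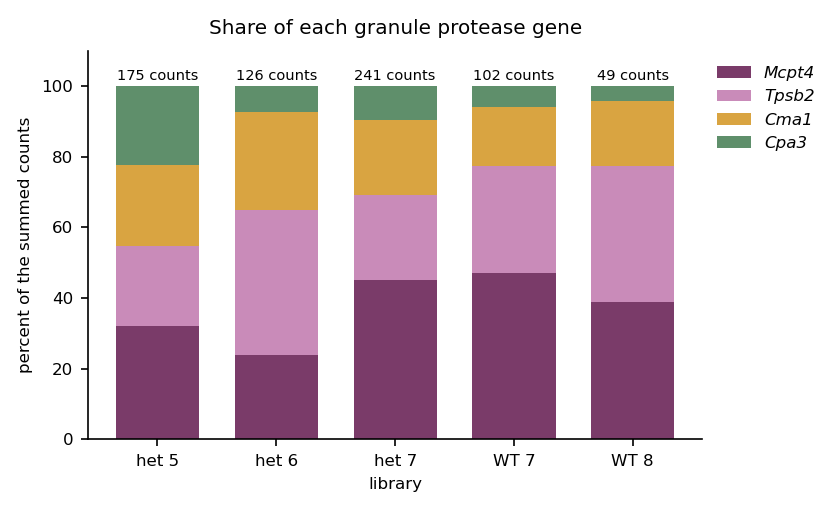
Share of Mcpt4, Tpsb2, Cma1 and Cpa3 in the summed expected counts of these 4 protease genes, in percent, for each het and WT library, with the summed counts above the bars. Cpa3 took 22.3% of the protease counts in het 5 and at most 9.54% in the other libraries.

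Kit encodes the receptor tyrosine kinase for stem cell factor, on which mast cells, melanocytes and some other cells depend. It had the most counts of the 7 genes, 101, 108 and 249 in het 5, 6 and 7, and 124 and 93 in WT 7 and 8. In CPM it stood at 4.74, 4.83 and 8.58 in het and 5.08 and 5.43 in WT. Het 5 and het 6 were below both WT libraries and het 7 was above them, with a counting interval of 7.54 to 9.71 CPM that did not reach that of WT 8 (4.39 to 6.66 CPM). The log2 fold change was 0.21 (SE 0.29), and it was -0.14 with het 7 left out.

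On the TPM scale (a relative level corrected for transcript length), Kit did not overlap: 3.98, 1.72 and 2.30 TPM in het, against 1.68 and 1.28 TPM in WT. In het 5 a retained-intron transcript of 392 bases, ENSMUST00000136002, with 4.21 expected counts accounted for 63.4% of the Kit TPM by the authors' isoform percent. A few reads on a short transcript thus set the highest Kit TPM value. In the other 4 libraries that transcript had at most 0.08 expected counts.

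Kit counts were spread over 6 of its 8 annotated transcripts. The full-length form with the insert held 55.2%, 45.7% and 0% of Kit counts in het 5, 6 and 7, and 0% and 56.0% in WT 7 and 8. The form without the insert, the more abundant over all libraries, held 0%, 14.1% and 67.2% in het and 58.3% and 0% in WT. In 4 of the 5 libraries the full-length counts were thus put wholly on one of the forms, in both genotypes, while the pair together held 55.2%, 59.8% and 67.2% in het and 58.3% and 56.0% in WT. The mean share of the form without the insert was 27.1% ± 35.4 in het (SD, n = 3) and 29.2% ± 41.2 in WT (SD, n = 2), a difference of -2.06 percentage points (exact two-sided permutation p = 1, where the smallest possible is 0.2). The forms also differ by 39 bases at the 5′ end, and read positions were not analysed here. The longest retained-intron transcript, ENSMUST00000202167, held 32.8% to 34.6% of Kit counts in het and 34.8% to 41.6% in WT.

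**Figure D3:**
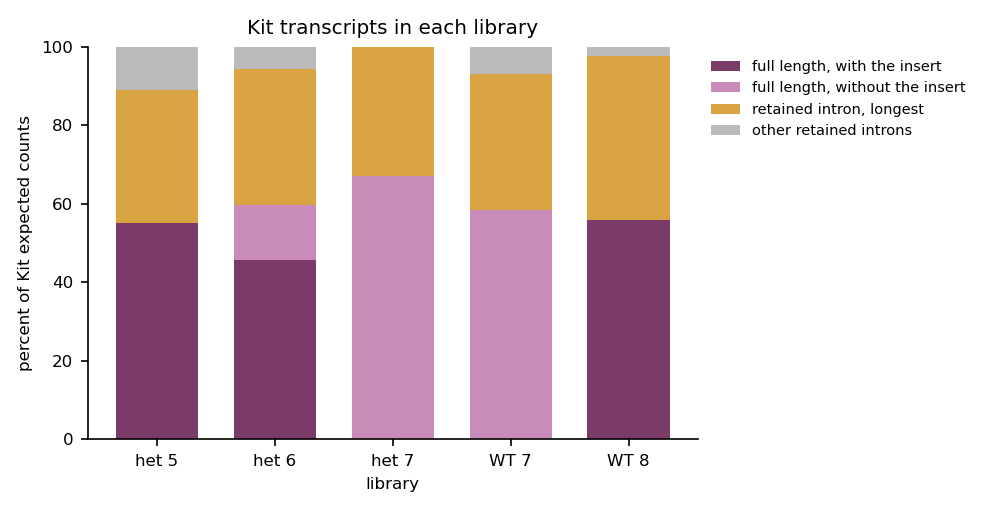
Percent of Kit expected counts assigned to each transcript class in the 3 het and 2 WT libraries. The 2 full-length forms replace each other between libraries of the same genotype, and their sum stays between 55.2% and 67.2%.

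Assignments to single transcripts moved in the same way for Cma1: its counts were all on ENSMUST00000022834 (1074 bases) in 4 libraries and all 35 on ENSMUST00000226280 (1090 bases) in het 6. The counts of Tpsb2 were spread over 8 of 18 annotated transcripts. Mcpt4 had a single annotated transcript, and Cpa3 and S100a8 had counts on 1 transcript each. For S100a9, ENSMUST00000117167 held 18.9% of the counts in het 5 and 26.4% in het 6, and none in het 7, WT 7 or WT 8.

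S100a9 encodes the larger calprotectin subunit. Its counts were 14, 21 and 16 in het 5, 6 and 7, and 0 and 3 in WT 7 and 8. The levels were 0.657, 0.940 and 0.551 CPM in het, and 0 and 0.175 CPM in WT. Every het library was above both WT libraries. The 0 in WT 7 has a counting interval of 0 to 0.151 CPM, and its floor of 3 counts is 0.123 CPM. The interval of WT 8 (0.0361 to 0.512 CPM) overlapped those of het 5 (0.359 to 1.10 CPM) and het 7 (0.315 to 0.895 CPM). The log2 fold change was 3.15 (SE 1.02) and it was 1.99 without WT 7. Without WT 8 the only WT library left is at 0, and no fold is given.

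S100a8 encodes the smaller subunit, which is unstable without its partner. Its counts were 9, 9 and 3 in het 5, 6 and 7, and 0 and 4 in WT 7 and 8. In CPM it stood at 0.422, 0.403 and 0.103 in het and 0 and 0.234 in WT. WT 8 was above het 7, so the groups overlapped, unlike those of S100a9. The means were 0.309 ± 0.179 CPM over het and 0.117 ± 0.165 CPM over WT libraries (SD, n = 3 and 2), and the counting interval of WT 8 (0.0637 to 0.598 CPM) covered all 3 het values. Both subunit genes are next to other S100 genes on chromosome 3, and together they had 23, 30 and 19 counts in het and 0 and 7 counts in WT.

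Per transcript length, the order of the levels differed between the genotypes. In het atria S100a9 was the highest at 5.21 ± 2.17 TPM (SD, n = 3), followed by Mcpt4 (3.597 ± 1.81 TPM), Kit (2.67 ± 1.17 TPM), Tpsb2 (2.59 ± 0.371 TPM), S100a8 (2.56 ± 1.54 TPM), Cma1 (2.51 ± 0.205 TPM) and Cpa3 (0.92 ± 0.615 TPM). Only the last step of this order, Cma1 to Cpa3, separated genes whose het libraries did not overlap. In WT atria the order was Mcpt4 (1.90 ± 0.785 TPM, SD, n = 2), Tpsb2 (1.58 ± 0.311 TPM), Kit (1.48 ± 0.283 TPM), S100a8 (0.90 ± 1.27 TPM), Cma1 (0.79 ± 0.170 TPM), S100a9 (0.575 ± 0.813 TPM) and Cpa3 (0.15 ± 0.0849 TPM), and all neighbours overlapped. Cpa3 was the lowest of the 7 genes by mean TPM in both genotypes.

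The authors' deposited table gives their own comparison of het and WT atria for 14927 genes, and its values are set here beside those of the 5 libraries. Its direction was read as het over WT from its name alone, so every comparison of sign with it rests on that reading. In the authors' deposited table the log2 fold change was -0.09 for Cpa3 (interval -1.19 to 1.01), 0.15 for Cma1 (-0.57 to 0.88), -0.44 for Tpsb2 (-1.27 to 0.40) and 0.0045 for Mcpt4 (-1.01 to 1.02). It was 0.17 for Kit (-0.58 to 0.91), 0.71 for S100a8 (-0.95 to 2.38) and 1.14 for S100a9 (-0.68 to 2.96) in the authors' deposited table. For the 7 members every interval included 0 and every adjusted p was 1. The median over all its genes was -0.04, and 0 genes of the authors' deposited table, fitted with limma, had an adjusted p under 0.05, with 836 at an unadjusted p under 0.05. The point estimates of Cpa3 and Tpsb2 thus had the opposite sign in the 2 sources, and those of Cma1, Kit and S100a9 the same sign. That of Mcpt4 was above 0 in both, but only 0.0045 in the authors' table. Which animals entered that table is not given in the sources used here, and libraries of other batches are not analysed here.

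**Figure D4:**
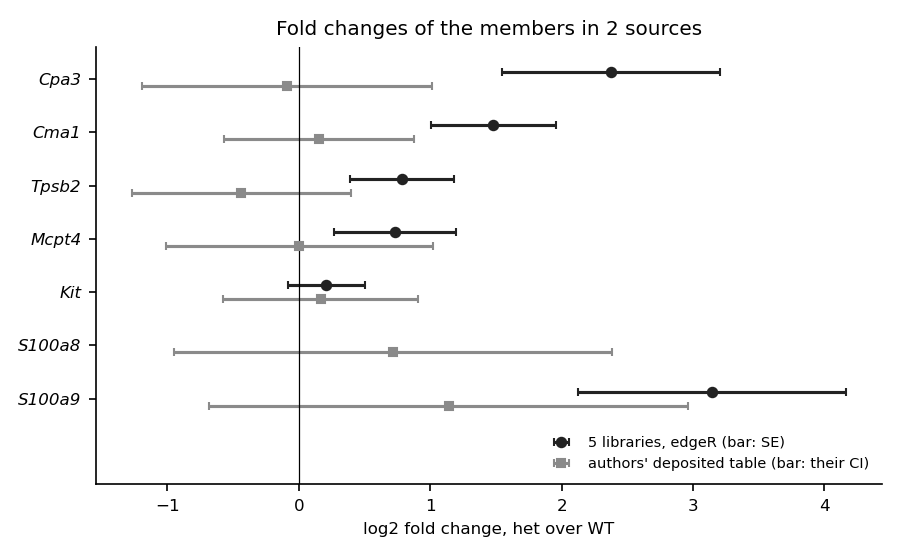
Log2 fold change of het over WT for each gene, from edgeR on the 5 libraries (circles, bars are ±1 SE) and from the authors' deposited table (squares, bars are its confidence limits); S100a8 has no circle because it did not pass the filter. The circles of Cpa3 (2.38) and S100a9 (3.15) lie farthest to the right, while all intervals of the authors' table include 0.

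Further genes of the mast cell granule were examined as a list. Of 11 further granule genes 5 were tested and 0 were called by edgeR, DESeq2 or limma-voom (0 at an unadjusted p under 0.05), with a median log2 fold change of 0.08 beside -0.001 over all genes tested (-0.14 without WT 7 and -0.08 with length and GC trends removed). Srgn, the serglycin core protein, stood at 18.1, 19.6 and 13.9 CPM in het and 14.02 and 20.6 CPM in WT, and Ndst2, which sulphates heparin, at 25.1, 21.4 and 19.9 CPM in het and 21.8 and 15.5 CPM in WT. Both overlapped between the groups. Tpsab1 had 4, 0 and 4 counts in het and 8 and 1 in WT, and Hdc, which makes histamine, 130, 204 and 98 counts in het and 180 and 149 in WT; they, and the mucosal mast cell proteases Mcpt1 and Mcpt2, were named after their values were seen. Mcpt1 and Mcpt2 had 0 counts in all 5 libraries, which at a floor of 3 counts allows up to 0.175 CPM in the shallowest (WT 8).

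The mast cell receptor list was close to the limit of detection. Of 7 genes 4 were tested and 0 were called by the 3 tools (0 at an unadjusted p under 0.05), with a median log2 fold change of 0.38. Fcer1g, the signalling chain of the IgE receptor that other immune cells share, stood at 7.69, 7.47 and 7.03 CPM in het and 6.48 and 7.01 CPM in WT. Il1rl1, the IL-33 receptor, had 1.55, 2.55 and 2.00 CPM in het and 1.19 and 1.46 CPM in WT, a log2 fold change of 0.62 (SE 0.41, edgeR adjusted p = 0.378).

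The other 5 receptor genes, described after their values were seen, had few counts. Fcer1a, the IgE-binding chain, had 10, 0 and 3 counts in het 5, 6 and 7, Ms4a2, the beta chain of the same receptor, 5, 2 and 4, and Mrgprb2, a receptor for basic secretagogues, 7, 1 and 2. Each had 0 counts in both WT libraries, and most of the Fcer1a and Mrgprb2 counts were those of het 5. Mrgprb1 had 11, 12 and 8 counts in het and 2 and 8 in WT, and the adenosine receptor gene Adora3 0.469, 0.671 and 0.207 CPM in het and 0.328 and 0.643 CPM in WT, so that both overlapped. Fcer1a, Ms4a2 and Mrgprb2 did not pass the expression filter and have no test.

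Genes for mast cell lipid mediators, which make prostaglandins and leukotrienes, were all tested (6 of 6), and 0 were called by edgeR (1 at an unadjusted p under 0.05), 1 by DESeq2 (Pla2g4a) and 0 by limma-voom. Their median log2 fold change was 0.37. Ptgs1, a cyclooxygenase, stood at 48.9, 59.1 and 45.3 CPM in het and 41.1 and 42.4 CPM in WT, and Alox5ap, which presents arachidonic acid to 5-lipoxygenase, at 16.2, 14.4 and 9.47 CPM in het and 9.55 and 9.47 CPM in WT.

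In the list of Kit's ligand, its signalling proteins and mast cell transcription factors, 23 of 24 genes were tested. Of these 2 were called higher and 0 lower (2.99% and 2.66% of all genes tested), and the median log2 fold change was 0.28. Sos1, the exchange factor that loads Ras downstream of Kit, rose to 34.4, 30.2 and 34.1 CPM in het, against 17.6 and 19.5 CPM in WT (log2 fold change 0.83, SE 0.14, edgeR adjusted p = 0.0229). Cbl, a ubiquitin ligase that removes activated Kit, rose to 43.2, 51.3 and 43.7 CPM in het, against 25.4 and 32.3 CPM in WT (0.68, SE 0.15, edgeR adjusted p = 0.031). Both proteins serve many receptors in most cell types. Ptpn11, a tyrosine phosphatase, and Grb2, an adaptor, had the highest TPM among the others of this list and were not called (edgeR adjusted p = 0.193 and 0.744). Kitl, the ligand itself and singled out after its values were seen, stood at 36.1, 39.3 and 36.0 CPM in het and 21.4 and 32.1 CPM in WT (0.48, edgeR adjusted p = 0.10).

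Most neutrophil granule genes were near 0 in every library. Of 18 genes 4 were tested and 0 were called by edgeR (2 at an unadjusted p under 0.05), 1 by DESeq2 (Mmp9) and 0 by limma-voom. Their median log2 fold change was 0.78. Mmp9, a gelatinase that macrophages and fibroblasts also make, had 14.3, 6.85 and 6.17 CPM in het and 4.02 and 3.62 CPM in WT (1.24, SE 0.38, edgeR adjusted p = 0.0818), and Lcn2 1.22, 1.03 and 0.172 CPM in het and 0.615 and 0.526 CPM in WT. Padi4, looked up with the next genes after the values were seen, had 25, 45 and 53 counts in het and 23 and 10 in WT (1.11, SE 0.49, edgeR adjusted p = 0.186), and Mmp8 2, 5 and 5 counts in het and 0 and 1 in WT. Every het library was above both WT libraries for Padi4 (21.1% of all genes tested) and for Mmp8, which did not pass the filter. Others overlapped: Pglyrp1 had 11, 7 and 11 counts in het and 7 and 9 in WT. Prtn3 had 3, 2 and 2 counts in het and 7 and 0 in WT. Ly6g and Elane had 0 counts in all libraries and Mpo had 1 count, in WT 7. The part of neutrophils in the calprotectin values was not tested.

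The list of neutrophil surface and oxidase genes held 15 genes, of which 11 were tested. Of the 11, 2 were called higher and 0 lower (2.99% and 2.66% of all genes tested), with a median log2 fold change of 0.18. Itgam and Itgb2, the chains of the integrin Mac-1, were called by edgeR and DESeq2, which also called Cybb, and by limma-voom neither was called. Itgam rose to 9.52, 14.1 and 7.68 CPM in het, against 4.88 and 5.08 CPM in WT (1.07, SE 0.27, edgeR adjusted p = 0.0436), and Itgb2 rose to 13.5, 18.0 and 10.2 CPM in het, against 6.48 and 7.95 CPM in WT (0.95, SE 0.25, edgeR adjusted p = 0.0461). Macrophages carry this integrin too. Of 15 macrophage and monocyte markers 2, Adgre1 and Cd163, were called higher in het (2.99% of all genes tested), and the median log2 fold change was 0.34. The part of macrophages in the integrin values was not tested. Cyba and Ncf4, subunits of the NADPH oxidase complex, were not called (edgeR adjusted p = 0.0734 and 0.84). Csf3r, the receptor of the growth factor of neutrophils and chosen after its values were seen, had 54, 64 and 46 counts in het and 24 and 25 in WT (0.93, SE 0.43, edgeR adjusted p = 0.197). Other genes of this list, chosen in the same way, were lower in het. Cxcr2 had 0.235, 0.134 and 0.379 CPM in het and 0.533 and 0.467 CPM in WT, and did not pass the filter. Fpr1 and Fpr2 had log2 fold changes of -0.36 and -0.58. Of the 11 tested genes, 6 were above 0 (49.9% of all genes tested).

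Among 6 genes for factors that attract or mature neutrophils, 4 were tested. In all 4, every het library was above both WT libraries (21.1% of all genes tested). EdgeR called 1 higher and 0 lower (2.99% and 2.66% of all genes tested). The median log2 fold change was 1.81. DESeq2 called Cxcl1 and Il1b higher (5.28% of all genes tested), and limma-voom called Cxcl1 (1.44%). Cxcl3, looked up with Csf3 after the values were seen, had 4, 1 and 1 counts in het and 4 and 4 in WT. Csf3 had 0 counts in every library, and neither passed the filter. Cxcl1, a chemokine that draws neutrophils through CXCR2, rose to 13.1, 11.4 and 13.02 CPM in het, against 4.92 and 2.92 CPM in WT (1.66, SE 0.24, edgeR adjusted p = 0.0229). Il1b, encoding interleukin-1β, stood at 1.83, 3.04 and 1.17 CPM in het and 0.492 and 0.526 CPM in WT (1.97, SE 0.55, edgeR adjusted p = 0.0541), and Cxcl5 at 2.25, 1.66 and 1.45 CPM in het and 0.533 and 1.29 CPM in WT (edgeR adjusted p = 0.246).

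S100a8 and S100a9 were picked for higher levels in het, so their sign is not set against that of other S100 genes. The other genes of the S100 family were examined as a list. All 8 tested of 11 had a log2 fold change below 0 (49.9% of all genes tested were above 0). Of these 0 were called higher and 1 lower (2.99% and 2.66% of all genes tested). The median was -0.29, between -0.44 and -0.04 under the alternative settings. S100a1, the calcium sensor of cardiomyocytes, fell to 238, 169 and 183 CPM in het, against 341 and 287 CPM in WT (-0.68, SE 0.16, edgeR adjusted p = 0.0362), and limma-voom did not call it. In the authors' deposited table the sign was the other way: 7 of 8 family members were above 0 (44.3% of all its genes). Their median there was 0.17, and S100a1 was at 0.12. S100a10 and S100a11, the family members with the highest TPM among the uncalled, had log2 fold changes of -0.12 and -0.28, which turned above 0 with length trends removed (0.20 and 0.11). In the list of receptors and adaptors of released calprotectin, 5 of 5 genes were tested, 0 were called by edgeR (2 at an unadjusted p under 0.05), 1 by DESeq2 (Tlr4) and 0 by limma-voom, and the median was 0.34. Cd14 had 11.7, 11.1 and 8.75 CPM in het and 6.44 and 8.41 CPM in WT, and Myd88 17.4, 18.3 and 16.7 CPM in het and 16.4 and 13.8 CPM in WT.

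Chymase acts on the angiotensin and endothelin systems, for which 10 of 13 genes were tested. Of these 0 were called higher and 1 lower (2.99% and 2.66% of all genes tested), with a median log2 fold change of -0.10. Agt, the angiotensinogen precursor, fell to 10.4, 13.3 and 9.23 CPM in het, against 16.6 and 20.9 CPM in WT (-0.77, SE 0.19, edgeR adjusted p = 0.0401), and limma-voom did not call it. The endothelin receptor genes Ednra and Ednrb were not called (edgeR adjusted p = 0.231 and 0.851). The renin gene Ren1, looked at after its values were seen, had 0 counts in every library.

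The 7 called genes named from these pathway lists kept their sign under all 15 alternative settings, and none kept its call with length and GC trends between libraries removed (edgeR adjusted p of 0.0524 for Cxcl1 to 0.571 for Cbl), a setting that left 1 gene called higher and 1 lower among all genes tested. There the log2 fold changes of Cxcl1 (1.70), Itgb2 (0.90), Itgam (0.83) and Agt (-0.63) stayed within 0.25 of those above, and those of Sos1 (0.29), Cbl (0.25) and S100a1 (-0.32) were less than 0.5 times as large. With the length trend alone removed Cxcl1 kept its call (edgeR adjusted p = 0.0141). Over all settings the adjusted p ran from 1.81e-09 to 0.113 for Cxcl1 and from 0.000297 to 0.644 for Cbl. None of the 7 kept its call on the TPM scale or without het 5, het 6 or het 7. Without WT 7 the calls of Sos1 and Cxcl1 held, and without WT 8 those of Sos1, Cbl, Cxcl1 and S100a1. In the authors' deposited table the log2 fold change was 0.85 for Cxcl1, -0.29 for Agt, 0.06 for Sos1 and 0.03 for Cbl, and of the opposite sign for Itgam (-0.11), Itgb2 (-0.28) and S100a1 (0.12), with no adjusted p under 0.05.

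Markers of other cells moved with some members. The summed level of the erythroid markers was 5278, 2632 and 2592 CPM in het 5, 6 and 7, and 600 and 2229 CPM in WT 7 and 8. WT 7, the library with 0 counts of S100a8 and S100a9, was thus also the lowest in red cell transcripts, and the part of blood in the calprotectin values was not tested. Of 8 erythroid markers 7 were tested, with 0 called by the 3 tools (0 at an unadjusted p under 0.05) and a median log2 fold change of 1.37, and of 7 platelet markers 7 were tested, with 0 called by the 3 tools (0 at an unadjusted p under 0.05) and a median of 1.23. With a library left out these medians ran from 0.63 (without WT 7) to 2.60 (without WT 8) for the erythroid and from 0.56 (without het 6; 0.58 without het 5) to 1.60 (without het 7) for the platelet markers. Platelet sums were 48.1, 32.1 and 20.3 CPM in het and 17.8 and 22.7 CPM in WT.

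Lymphocyte markers summed to 19.4, 34.9 and 17.2 CPM in het and 9.80 and 10.8 CPM in WT, and macrophage and monocyte markers to 438, 539 and 387 CPM in het and 346 and 360 CPM in WT. Pan-leukocyte markers summed to 68.0, 106 and 57.1 CPM in het and 57.5 and 56.0 CPM in WT. Het 6 was the highest of the libraries in all 3 of these sums and in S100a9, but not in any mast cell protease other than Tpsb2. Adipocyte markers summed to 5.35, 11.7 and 110 CPM in het and 19.6 and 55.1 CPM in WT, so het 7, the highest in Kit and Mcpt4, was also the highest in these, and the part of attached fat in those values was not tested. Melanocyte markers, relevant because melanocytes carry Kit, summed to 48.5, 45.1 and 43.2 CPM in het and 55.0 and 76.8 CPM in WT. Most of this sum was Mlana alone, at 41.0, 40.3 and 35.3 CPM in het and 44.8 and 68.8 CPM in WT. Tyr, Pmel, Oca2 and Slc45a2 did not pass the filter. The part of melanocytes in the Kit values was not tested. Basophil and eosinophil markers, relevant because these cells share mast cell genes, summed to at most 0.313 and 0.761 CPM in any library, and 0 of 3 and 0 of 7 passed the filter.

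**Figure D5:**
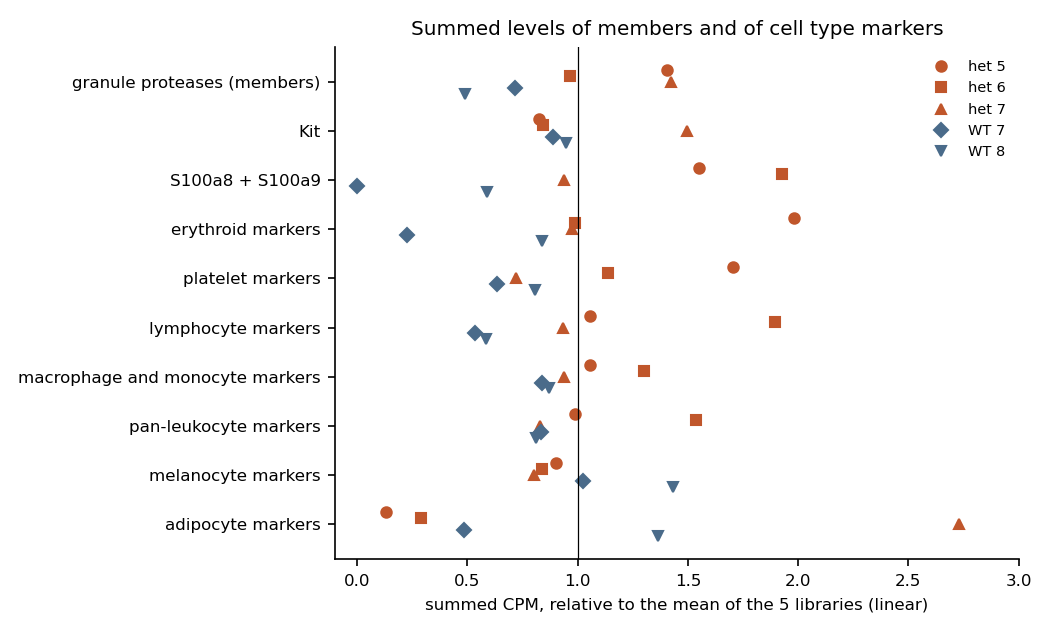
Summed CPM of the protease genes, Kit, the calprotectin genes and the marker lists of other cells, each divided by its mean over the 5 libraries (linear axis); red symbols are het and blue symbols WT libraries. WT 7 (blue diamond) is the lowest in the calprotectin genes, at 0, and in erythroid markers, at 600 CPM; het 7 (triangle) is the highest in Kit and in adipocyte markers.

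Genes with the most similar course over the 5 libraries were found among 12890 genes with a mean of at least 1 CPM, by the root mean square difference of centred log2(CPM + 0.1) values. The members were picked for higher levels in het, and the closest genes lie below the median by construction. These matches are therefore a description only. The mean course of the 5 mast cell genes was matched most closely by Myocd (difference 0.07), Pogk (0.12), Filip1 (0.13), Fancb (0.13) and Mapk4 (0.15), beside a median of 0.55 over all genes compared. Myocd, a coactivator of cardiac and smooth muscle genes, stood at 48.4, 33.8 and 50.5 CPM in het and 26.4 and 22.6 CPM in WT. That course was high in het 5 and het 7, intermediate in het 6 and lowest in WT 8. Not every mast cell gene followed it: Kit was lower in het 5 and het 6 than in both WT libraries, and Tpsb2 was highest in het 6. The mean course of S100a8 and S100a9 was matched closely by Igkc (0.27), Evi2b (0.31), Alas2 (0.34) and Hbb-bt (0.37), beside a median of 1.02. Of these, Igkc encodes an immunoglobulin chain, and Alas2 and Hbb-bt are red cell genes. Alas2, the first enzyme of haem synthesis in red cells, stood at 58.7, 41.9 and 31.9 CPM in het 5, 6 and 7, and at 5.16 and 26.0 CPM in WT 7 and 8. These genes share with S100a8 and S100a9 the low value of WT 7.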

How the data were processed

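PolyA-selected, stranded libraries were made from RNA of whole atria, per the labels' protocols. The submitters' processing notes name Trim Galore, STAR, RSEM, limma and edgeR among their tools and GRCm39 as build; versions are not given in the sources used here. The deposited RSEM tables hold expected counts and TPM per gene and transcript, and the isoform percent of each transcript. The authors' deposited comparison table holds p-values, scores (the moderated t) and log2 fold changes with confidence limits.

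Groups came from the sample titles (3 het, 2 WT). Expected counts were rounded, filtered with edgeR's filterByExpr (16412 of 57186 genes), TMM-scaled, and compared by the quasi-likelihood test of edgeR (robust), with p-values adjusted by Benjamini-Hochberg over all genes tested and called under 0.05. Biological variation between libraries (edgeR's common BCV) was 0.18. Given values are mean ± SD over libraries. A 95% Clopper-Pearson interval or a floor of 3 counts covers counting error only; libraries of 17784601 to 28353091 counts set this precision. Exact tests over 3 and 2 libraries cannot go below p = 0.2. P-values compare the group difference with the spread between these libraries. In edgeR that spread is estimated with information shared over genes.

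Members and lists were chosen with earlier results of these data known. Beside the members, 21 lists held 195 genes, of which 194 were matched and 140 tested. Of the 140, 8 were called higher (5.71%, against 2.99% of all genes tested) and 5 lower (2.66% of all genes tested). Named are all members, called list genes (up to 4 a list), uncalled ones of the highest TPM (up to 3 a list), and the 5 genes with the most similar course. A gene that this rule names is not reported here. Alternatives were library-size and RLE scaling, DESeq2, limma-voom, limma-trend with pseudocounts of 1 and 0.1 on log2 TPM, 2 other filters, length and GC offsets (GC known for 97.9% of tested genes), and each library left out. Promoters and the Kit insert are from RefSeq and GENCODE on GRCm38, another build than the files', so no coordinates of the files are given. The code was tested on simulated data. Without a length trend in them, 13 of 168 calls were false. With a set length trend and no length offset, as in the edgeR fit used here, 202 of 353 calls were false. With the offset, 7 of 157 were false. The set trend was not fitted to these libraries. The tools were edgeR 4.0.16, DESeq2 1.42.0, limma 3.58.1 and mgcv 1.9.3, run in R 4.3.3.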

Additional observations from a re-analysis of the deposited data

How the results depend on the processing

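The number of genes called depended strongly on the processing. Of all genes tested, 490 were called higher and 436 lower. The higher count was 795 with library size alone, 867 with DESeq2, 237 with limma-voom, 1304 when no gene with a count was filtered out, 0 and 2 with limma-trend on TPM (pseudocounts of 1 and 0.1), 5 with length trends removed and 1 with length and GC trends removed. The lower count was 780 with DESeq2, 222 with limma-voom, 907 without the filter, 1 and 3 on the TPM scales, 12 without length trends and 1 without length and GC trends. Leaving out single libraries gave 0 (without het 5 or het 7) to 588 (without WT 8) higher and 0 (without het 7) to 290 (without WT 8) lower. In the other lists, 8 were called higher and 5 lower. These became 16 and 8 with DESeq2, 5 and 1 with limma-voom, 22 and 8 without the filter, 0 and 0 on both TPM scales, 1 and 0 without length trends, 0 and 0 without length and GC trends, and 0 to 7 and 0 to 3 with a library left out. With het 6 left out, 5 genes were called higher and 6 lower. The median log2 fold change of all genes was 0.13 on log2(TPM + 0.1) and -0.14 without the filter, against -0.001. The causes were not tested.

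Of 86 alternative values of the members' fold changes, 71 moved by less than the spread between replicates, 13 moved further and 2 turned, both of Kit: -0.014 without length and GC trends and -0.135 without het 7 (up to 0.362, without het 5). Cpa3 ranged from 0.69 (TPM with a pseudocount of 1) to 3.04 (without WT 7), and it did not pass the filter without het 5 or het 7. The list median of neutrophil surface and oxidase genes turned to -0.084 without the filter and -0.087 without het 6 (up to 0.423, without WT 8), and that of angiotensin and endothelin genes to 0.14 and 0.17 on the TPM scales and 0.078 without WT 7 (down to -0.146, without WT 8). Lists without a call turned as well: mast cell granule genes (-0.14 without WT 7, -0.077 without length and GC trends), mast cell receptors (-0.005 without WT 7) and adipocyte markers (-2.18 without het 7, -0.165 without WT 7, -0.766 with limma-voom, -0.281 and -0.609 on the TPM scales, -0.036 with a mean of at least 1 CPM). The difference in the share of Kit counts without the insert was -2.06 points, 3.52 by isoform percent and -31.2 to 27.1 with a library left out (27.1 without WT 7). Leaving out a WT library leaves 1, which is assumed to vary like the het libraries. No paired analysis was made, because the labels do not pair any het animal with a WT animal. Counts of 0 to 109 per library limit the precision of every member except Kit.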

Other observations

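Other cell type lists held called genes that are not part of the mast cell or neutrophil pathways. Over all genes tested, 2.99% were called higher and 2.66% lower by edgeR. Igkc, the immunoglobulin kappa chain of B cells and plasma cells, was the called gene of the 8 tested of 11 lymphocyte markers: it rose to 3.71, 5.77 and 2.76 CPM in het 5, 6 and 7, against 0.656 and 1.40 CPM in WT 7 and 8 (log2 fold change 2.01, SE 0.45, edgeR adjusted p = 0.0322), and limma-voom did not call it. The macrophage genes Adgre1 (1.14, SE 0.22, edgeR adjusted p = 0.0297) and Cd163 (1.03, SE 0.22, edgeR adjusted p = 0.0364) rose as well, with all 15 tested members of their list above 0 (49.9% of all genes tested) and a median of 0.34. By contrast, 7 of the 15 were above 0 in the authors' deposited table, with Adgre1 at -0.06 and Cd163 at -0.02. Of 5 pan-leukocyte markers 0 were called by edgeR (2 at an unadjusted p under 0.05), 1 by DESeq2 (Ptprc) and 0 by limma-voom, with a median of 0.50. In the cardiomyocyte lists the called genes were lower: Nppa (-0.64, SE 0.16, edgeR adjusted p = 0.041) and Myl4 (-0.68, SE 0.15, edgeR adjusted p = 0.0305) among 7 atrial genes with a median of -0.58, and Myh7 (-0.58, SE 0.15, edgeR adjusted p = 0.0439) of 2 tested ventricular genes with a median of -0.29. None of these 6 calls held with length and GC trends removed, where the log2 fold changes were 2.3495 for Igkc, -0.67 for Myh7, 0.98 for Adgre1, 0.74 for Cd163, -0.30 for Nppa and -0.37 for Myl4. In the authors' deposited table Igkc (-0.18), Myl4 (0.16) and Myh7 (0.85) had the opposite sign and Nppa (-0.06) the same. Melanocyte markers (4 tested of 8, median -0.69) and adipocyte markers (5 of 5, median 0.24, which was -2.18 without het 7 and -0.77 with limma-voom) had 0 calls by edgeR, DESeq2 and limma-voom, with 3 and 0 at an unadjusted p under 0.05.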
